A study of Mus musculus with 8 samples.

Results

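The Wnt ligand Wnt3 and 9 genes through which intestinal crypt cells receive a Wnt signal and hold it in check were compared between small intestinal (SI) and colonic (COL) crypts of wild-type mice. The 10 genes were listed by symbol and matched to their Ensembl identifiers, and they are 10 of 45706 genes counted. They are the ligand Wnt3, the receptors Fzd5, Fzd7, Lrp5 and Lrp6, the R-spondin receptor Lgr4 with the ubiquitin ligases Rnf43 and Znrf3, and the inhibitors Axin2 and Nkd1. Their measured levels played no part in the listing, although earlier results from these libraries were known when the list was drawn up. All 10 passed the filter on low counts, which left 14491 genes for testing.

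Fresh crypts of 4 C57BL/6N mice were profiled by RNA-Seq. The mice carried no mutant allele and received no treatment. From every mouse came 1 library per tissue, 4 SI and 4 COL libraries in all. By the labels, replicates 1 and 4 (donor mice 1 and 5) were female and replicates 2 and 3 (donor mice 2 and 3) were male, and the age of the mice is not given in the sources used here. Crypts were released with EDTA, and the detailed protocol, written for the organoid cultures of the same study, takes the proximal small intestine after its villi have been scraped off.

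Wnt ligands are lipid-modified secreted proteins that bind a Frizzled receptor together with the co-receptors Lrp5 or Lrp6, which stops the destruction complex from degrading beta-catenin. R-spondins bound to Lgr receptors clear the ligases Rnf43 and Znrf3 from the cell surface, where these would otherwise remove Frizzled proteins. In the crypt this signal maintains stem cells, Paneth cells of the small intestine are a known source of Wnt3, and several inhibitors, Axin2, Nkd1, Rnf43 and Znrf3 among them, are themselves Wnt target genes.

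The libraries held between 15969428 and 32908060 counts. The share of mitochondrially encoded genes was low, 4.83 to 7.35%, in both libraries of replicate 4, in SI1 and in COL3. It was high, 22.7 to 50.8%, in both libraries of replicate 2, in SI3 and in COL1, a split that cuts across the tissues. Most marker lists of the tissues followed the labels. Of 10 Paneth cell markers 9 were higher in SI, with a summed level of 630 to 4826 CPM (counts scaled to a common library size) in SI and 19.1 to 83.5 CPM in COL, all 8 small intestinal enterocyte markers were higher in SI, and all 5 markers of deep crypt secretory cells of the colon were higher in COL. Markers of the colonic surface epithelium went both ways, with 3 of 6 higher in COL, 2 higher in SI and overlapping sums of 5249 to 12163 CPM in SI and 5345 to 33495 CPM in COL. Enterocyte markers summed to 59501 to 140358 CPM in SI, so differentiated cells remained in these preparations. SI1 stood apart from the other SI libraries, with a summed stem cell marker level of 35.6 CPM against 259 to 379 CPM and a summed cycling cell marker level of 108 CPM against 275 to 460 CPM. Fibroblast markers summed to 1.04 to 5.98 CPM in SI and 5.96 to 18.2 CPM in COL, and no marker of glia and neurons passed the filter.

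For 9 of the 10 genes no difference between the tissues passed the test. Only Znrf3 passed the threshold of edgeR's quasi-likelihood test (adjusted p below 0.05 after Benjamini-Hochberg adjustment over all genes tested), and it was higher in COL. That is 1 of 10 members, where 28.4% of all genes tested were called, 15.5% as higher in SI and 12.9% as higher in COL. With the mouse as a block in edgeR it was also 1 of 10, against 28.1% of all genes. DESeq2 and limma-voom called 2 of 10, Znrf3 and Wnt3, against 35.4% and 32.4% of all genes, and edgeR with library size alone called 2, Znrf3 and Lrp6, against 40.7%. The ranges of the tissues did not overlap for 2 of the 10, Wnt3 with higher and Znrf3 with lower levels in SI, against 33.5% of all genes, 17.8% with higher and 15.7% with lower levels in SI. The median log2 fold change (SI over COL) of the 10 genes was 0.04, beside -0.09 over all genes tested. Levels below are in CPM, scaled by the trimmed mean of M values (TMM), and differences are log2 fold changes of SI over COL, so that a negative value means higher in COL.

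**Figure D1:**
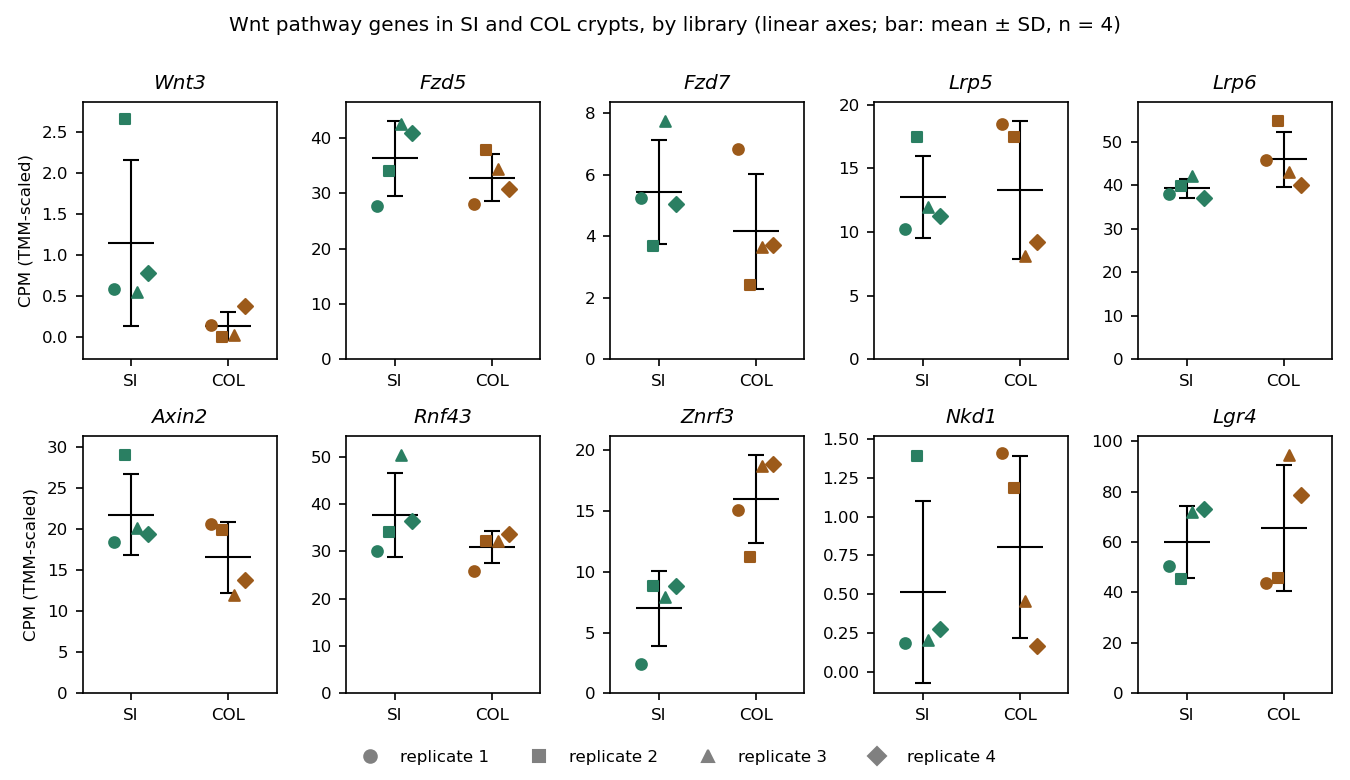
Level of each of the 10 genes (CPM, linear axes) in the 4 SI and 4 COL libraries, with 1 symbol shape per replicate, that is per mouse, and bars for mean ± SD (n = 4). The SI and COL points are apart for Wnt3, where 1 COL library is at 0, and for Znrf3, and they overlap for the other 8.

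Wnt3, on chr11:103774150-103817957 (plus strand, GRCm38), encodes the ligand of the set and was the lowest of the 10 genes in COL. Its counts were 13, 44, 11 and 17 in SI1 to SI4 and 5, 0, 1 and 18 in COL1 to COL4, which gave 0.589, 2.66, 0.558 and 0.778 CPM in SI and 0.147, 0, 0.0267 and 0.377 CPM in COL. Every SI library lay above every COL library, SI2 was far above the other SI libraries, and COL4 was the highest COL library. For COL2, a count of 0 allows up to 0.186 CPM (3 counts, counting error only).

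The log2 fold change of Wnt3 was 2.90 ± 1.02 (SE, 95% interval 0.65 to 5.14), or 7.44-fold higher in SI, higher in SI in 4 of 4 mice. Its adjusted p of 0.0522 (edgeR's quasi-likelihood test) did not pass the threshold. The result stood close to it and moved across it with the method. It passed with DESeq2 (adjusted p = 0.0160), with limma-voom (adjusted p = 0.0288), with limma-voom and the mouse as a block (adjusted p = 0.0432) and in edgeR without COL4 (log2 fold change 4.06, adjusted p = 0.0314), while edgeR with the mouse as a block gave 3.01 and an adjusted p of 0.0799. Without SI2 the log2 fold change was 2.09 (adjusted p = 0.140, edgeR).

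Paneth cell marker sums were higher in SI and did not overlap between the tissues, as was so for small intestinal enterocyte markers. Immune cell marker sums leaned to SI but overlapped, at 40.6 to 81.8 CPM in SI and 15.3 to 42.6 CPM in COL. Of 6 immune markers tested 2 were called, both as higher in SI (33.3%, beside 28.4% of all genes tested). Within SI, SI2 had the highest Wnt3 level and the highest Paneth marker sum of 4826 CPM, while SI1 had the lowest Paneth sum of 630 CPM but not the lowest Wnt3 level. The immune sum within SI was highest in SI1, at 81.8 CPM. Within COL, COL4 had the highest Wnt3 level and the highest immune sum of 42.6 CPM. Its Paneth sum was 32.3 CPM, against 83.5 CPM in COL1 and 51.3 CPM in COL2, which had no Wnt3 count. Whether Paneth or immune cells contributed to the difference was not tested. In such bulk samples, fewer cells of a type and less RNA per cell cannot be told apart.

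The 5 protein-coding genes nearest to Wnt3 were Prodh, Gimap4, Asb2, Itgb7 and Jchain. Their mean absolute differences from it were 0.46, 0.51, 0.52, 0.53 and 0.53 in centred log2 CPM over the 8 libraries. The median distance of the 12583 protein-coding genes compared was 1.32. This distance depends on the size of a change as well as its shape, so genes with much larger changes than Wnt3 lie far from it. Wnt3 had 0 counts in COL2 and 1 in COL3, where its log2 value depends on the 0.1 CPM added before taking logs. Prodh, a proline-degrading enzyme of mitochondria, was far more abundant, with a mean ± SD of 71.6 ± 17.0 CPM over the 4 SI libraries and 25.7 ± 11.6 CPM over the 4 COL libraries. Gimap4 and Itgb7 are genes of lymphocytes. Jchain encodes the joining chain of secreted antibodies and is itself on the list of immune cell markers.

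Of the other 18 Wnt ligands on the list, 3 passed the filter and none was called, beside 28.4% of all genes tested. Wnt2b, Wnt5a and Wnt5b, the last 2 known mainly for beta-catenin-independent signals, had log2 fold changes of -0.87, -1.32 and -0.74 (adjusted p = 0.517, 0.215 and 0.682, edgeR). Wnt5a counts were 57, 14, 2 and 22 in SI and 126, 25, 131 and 123 in COL, with overlapping levels. Wnt1, Wnt2, Wnt7a, Wnt7b, Wnt8a and Wnt10a had no count in any library, and the remaining 9 lay below the filter.

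Both genes of the list for Wnt secretion were called as higher in COL, beside 12.9% of all genes tested. Wls, the carrier that takes Wnt proteins to the cell surface, stood at 3.44, 6.83, 15.3 and 13.5 CPM in SI and 78.0, 66.4, 115 and 128 CPM in COL. It differed by a log2 fold change of -3.31 ± 0.47 (SE, adjusted p = 0.000333, edgeR) and was called in all 8 fits that left out 1 library. Porcn, the acyltransferase that attaches the lipid, had counts of 2, 15, 5 and 7 in SI and 93, 27, 64 and 89 in COL and a log2 fold change of -2.36 (adjusted p = 0.0275, edgeR), a call that was lost without SI1, SI3, SI4, COL1, COL3 or COL4. Porcn passed the filter through its COL counts, which limits its call and the share called in this list. Both secretion genes thus lay on the COL side, and Wnt3 on the SI side, with the limits given for Porcn and Wnt3.

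Fzd5 and Fzd7, the Frizzled receptors of the set, did not pass the test. Fzd5, on chr1:64730558-64737751 (minus strand), is required for the maturation of Paneth cells and stood at 27.7, 34.1, 42.5 and 40.9 CPM in SI and 28.0, 37.8, 34.5 and 30.8 CPM in COL. Its log2 fold change was 0.15 ± 0.24 (SE, 95% interval -0.37 to 0.67, adjusted p = 0.686, edgeR). A gene model on the opposite strand, Gm38058, with 0 to 12 counts per library, overlaps 17.8% of the Fzd5 exons. Fzd7, on chr1:59482424-59486955 (plus strand), a receptor of intestinal stem cells, stood at 5.25, 3.69, 7.76 and 5.04 CPM in SI and 6.84, 2.42, 3.64 and 3.73 CPM in COL.

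For both genes the tissues overlapped. COL1 had the lowest Fzd5 level but the highest Fzd7 level among the COL libraries. Fzd7 had a log2 fold change of 0.38 ± 0.42 (SE, 95% interval -0.53 to 1.30, adjusted p = 0.532, edgeR) and was higher in SI in 3 of 4 mice. These intervals leave room for differences of up to 1.30 on the log2 scale.

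The co-receptors Lrp5, on chr19:3584828-3686564 (minus strand), and Lrp6, on chr6:134446476-134566965 (minus strand), bind Wnt ligands beside a Frizzled. Lrp5 stood at 10.2, 17.5, 12.0 and 11.3 CPM in SI and 18.5, 17.5, 8.08 and 9.21 CPM in COL. COL1 and COL2 were high and COL3 and COL4 low, with the SI libraries between or beside them. Its log2 fold change of -0.06 ± 0.35 (SE, 95% interval -0.82 to 0.69, adjusted p = 0.909, edgeR) was near 0 and changed sign with the method.

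Lrp6 varied least of the 10 genes, by 1.48-fold between its lowest and highest library, at 38.0, 39.8, 42.2 and 37.0 CPM in SI and 45.9, 54.8, 43.0 and 40.1 CPM in COL. It was higher in COL in 4 of 4 mice, but COL4 lay within the SI range. The log2 fold change was -0.23 ± 0.22 (SE, 95% interval -0.71 to 0.25, adjusted p = 0.476, edgeR). Scaling by library size alone gave -0.95 and an adjusted p of 0.00927 in edgeR, but it moved the median of all genes to -0.82, so that Lrp6 stood only 0.13 below that median.

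Of 16 Frizzled, LRP and related receptors on the list, 14 passed the filter and 7 were called, 6 as higher in COL and 1 as higher in SI. Without the 4 members, 10 of the other 12 receptors passed the filter, and all 7 calls were among them, where 28.4% of all genes were called. Some of these, Ror1, Fzd3 and Fzd8 among them, passed the filter through their COL counts. They had at most 4, 4 and 9 counts in an SI library, which limits the comparison of the 2 shares. Fzd2, Ptk7 and Ryk were tested and not called, with log2 fold changes of -2.62, -2.35 and 0.10 (adjusted p = 0.0572, 0.0696 and 0.815, edgeR). Ror1 and Ror2, receptor kinases that bind Wnt5a, were among those called. Ror1 had 0, 0, 4 and 0 counts in SI and 63, 56, 69 and 98 in COL (adjusted p = 0.00288, edgeR), and Ror2 had 6, 3, 12 and 15 counts in SI and 147, 49, 80 and 179 in COL (adjusted p = 0.00346, edgeR). Fzd3 had 0, 0, 1 and 4 counts in SI and 56, 66, 33 and 28 in COL (adjusted p = 0.00717, edgeR). Fibroblast marker sums were also higher in COL, apart from an overlap of 1 library of each tissue, and their part in these counts was not tested.

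Fzd8, Fzd6 and Fzd1 were also higher in COL, with log2 fold changes of -2.52, -2.46 and -2.23 (adjusted p = 0.0284, 0.00650 and 0.0163, edgeR). The call of Fzd8 was lost without SI1, SI3, SI4, COL1 or COL4 and that of Fzd1 without COL4. Fzd4 was the only receptor of the list called as higher in SI, with 1.97 to 2.67 CPM in SI and 0.373 to 0.939 CPM in COL. Its log2 fold change was 1.66 ± 0.52 (SE, adjusted p = 0.0336, edgeR), but the adjusted p was 0.0558 with the mouse as a block and the call was lost without SI1, SI3, SI4, COL1, COL3 or COL4.

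The make-up of the Frizzled transcripts differed between the tissues. Of the summed counts per kb of exon over the 10 Frizzled genes, a share that needs no scaling between libraries, Fzd5 and Fzd7 together made up 87.6, 86.4, 90.3 and 88.2% in SI1 to SI4 and 57.8, 67.8, 72.2 and 62.8% in COL1 to COL4. The SI mean was 88.1 ± 1.61% and the COL mean 65.1 ± 6.22% (SD, 4 libraries each), and every SI library lay above every COL library. Fzd5 alone made up 71.7 ± 3.07% in SI and 54.8 ± 9.42% in COL, Fzd1 2.56 ± 1.41% and 10.4 ± 3.53%, and Fzd6 2.20 ± 1.68% and 9.59 ± 1.92%. This share was computed after the levels had been seen, and it is given without a test.

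**Figure D2:**
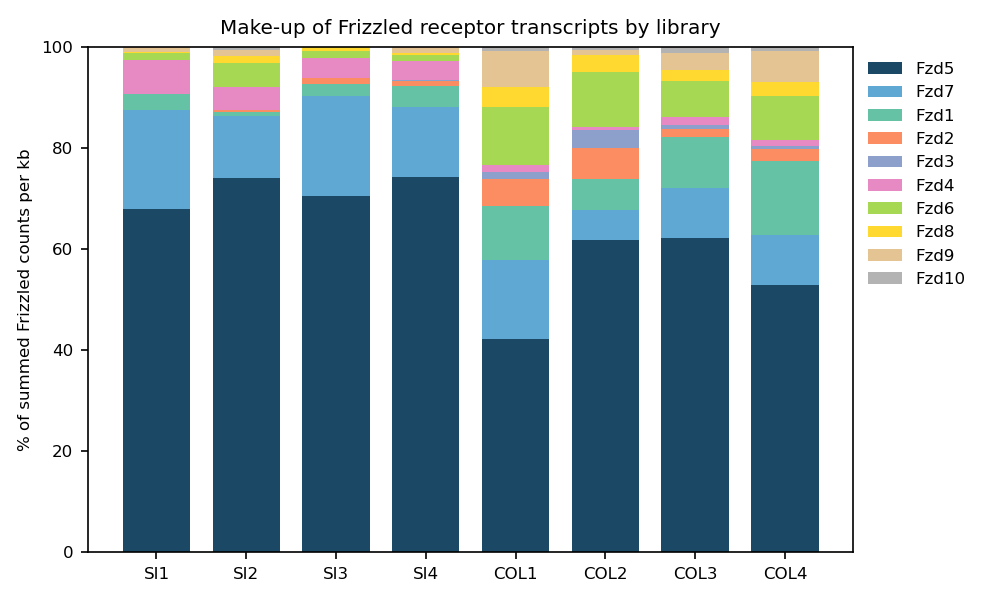
Share of each Frizzled gene in the summed counts per kb of exon of all 10 Frizzled genes (stacked bars, %), by library. Fzd5 and Fzd7, the lowest segments, reach 86.4 to 90.3% in SI and 57.8 to 72.2% in COL.

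Lgr4, on chr2:109917647-110014257 (plus strand), the R-spondin receptor of wider expression than Lgr5, was the most abundant of the 10 genes per kb in both tissues. It stood at 50.6, 45.3, 71.7 and 73.0 CPM in SI and 43.8, 45.9, 94.5 and 78.6 CPM in COL. In each tissue replicates 3 and 4 were higher than replicates 1 and 2, and the tissues overlapped. The log2 fold change was -0.13 ± 0.32 (SE, 95% interval -0.83 to 0.57, adjusted p = 0.802, edgeR).

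Rnf43, on chr11:87662722-87735539 (plus strand), encodes a ligase that removes Frizzled proteins from the cell surface. Its level was 30.2, 34.0, 50.4 and 36.4 CPM in SI and 25.8, 32.1, 32.2 and 33.6 CPM in COL. It was higher in SI in 4 of 4 mice, but SI1 lay within the COL range. Its log2 fold change was 0.29 ± 0.24 (SE, 95% interval -0.25 to 0.82, adjusted p = 0.414, edgeR).

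Znrf3, on chr11:5276324-5444847 (minus strand), the paralog of Rnf43 with the same role, went the other way. It had 53, 146, 157 and 192 counts in SI and 514, 180, 700 and 901 in COL, or 2.40, 8.82, 7.96 and 8.79 CPM in SI and 15.1, 11.2, 18.7 and 18.9 CPM in COL. Every COL library lay above every SI library, SI1 was far below the other SI libraries, and COL2 came nearest to SI. SI1 was also the lowest SI library in the summed stem and cycling cell markers. The sums of deep crypt secretory markers were apart between the tissues, 764 to 1365 CPM in SI and 9491 to 21237 CPM in COL, lowest in COL2 within COL but highest in SI1 within SI. Goblet cell marker sums, from a list that shares Muc2 with it, were also apart, 2575 to 10656 CPM in SI and 11382 to 19246 CPM in COL. They too were lowest in COL2 within COL and highest in SI1 within SI. Only 1 of 5 goblet markers was called, as higher in COL. The median log2 fold change of the 5 was 0.66, toward SI and against the direction of the sums. The part of either cell type in the Znrf3 difference was not tested. The log2 fold change was -1.19 ± 0.40 (SE, 95% interval -2.08 to -0.31), 2.29-fold higher in COL and higher in COL in 4 of 4 mice, with an adjusted p of 0.0464 in edgeR's quasi-likelihood test.

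This call stood near the threshold. DESeq2 gave an adjusted p of 0.0124, limma-voom 0.0225 and edgeR with the mouse as a block 0.0409. With 1 library left out, the log2 fold change stayed between -1.36 and -0.89, and the call was lost without SI1, SI2, SI3, SI4, COL1, COL3 or COL4, with adjusted p from 0.0519 to 0.104 in edgeR. Without SI1 the log2 fold change was -0.89 (adjusted p = 0.0560, edgeR). Within the 4 libraries of high mitochondrial share the difference in mean log2 CPM was -0.63, and within the 4 of low share it was -2.003, both higher in COL.

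The balance of Znrf3 and Rnf43 within a library was also compared. The ratio of Znrf3 to Rnf43 counts per kb of exon was 0.0667, 0.216, 0.132 and 0.201 in SI and 0.485, 0.290, 0.484 and 0.467 in COL, with every SI library below every COL library. The difference in mean log2 ratio was -1.59, a 3.02-fold lower ratio in SI, lower in 4 of 4 mice and between -1.80 and -1.24 with any 1 library left out. The exact permutation test (two-sided, 70 assignments) gave p = 0.0286, the smallest it can give, and 0.171 after adjustment over 6 pairs, which did not pass. A pair that is alone at this smallest value cannot pass after that adjustment, so the test cannot decide. The exact sign-flip test over the 4 mice gave p = 0.125, also its smallest.

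For the other 5 pairs (Fzd7/Fzd5, Lrp6/Lrp5, Lgr4/Lgr5, Nkd2/Nkd1 and Axin2/Axin1) the ratios overlapped between the tissues, with adjusted p from 0.343 to 0.771 in the exact permutation test. The Lgr4 to Lgr5 ratio was 134.6 in SI1, where Lgr5, the stem cell R-spondin receptor, had 14 counts, and 7.96 to 21.8 in SI2 to SI4. In COL it was 4.97 to 13.0. Lgr5 itself stood at 0.634, 9.91, 11.2 and 5.81 CPM in SI and 11.5, 16.1, 12.7 and 11.5 CPM in COL. Its log2 fold change was -0.92 (adjusted p = 0.293, edgeR). Among the 9 R-spondins, their receptors and ligases, 4 passed the filter and Znrf3 was the 1 called (25.0%, beside 28.4% of all genes tested).

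**Figure D3:**
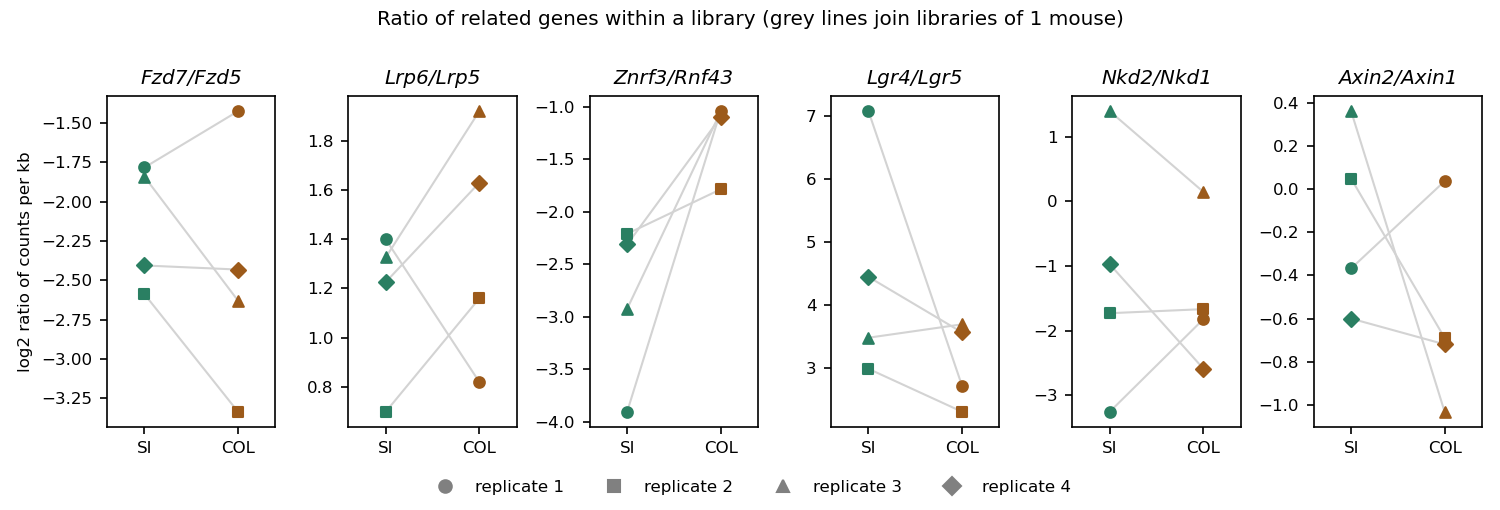
Log2 ratio of counts per kb of exon for 6 pairs of related genes in SI and COL libraries, with 0.5 count added and 1 symbol shape per mouse. The vertical axis differs between panels, and grey lines join the libraries of 1 mouse. The Znrf3/Rnf43 ratio is lower in SI in all 4 mice, and the other 5 pairs overlap.

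Axin2, on chr11:108920349-108950783 (plus strand), encodes a scaffold of the destruction complex and is the most widely used readout of Wnt signalling. It stood at 18.4, 29.1, 20.2 and 19.5 CPM in SI and 20.6, 19.9, 12.0 and 13.8 CPM in COL. SI2 was the highest SI library, COL3 and COL4 were the lowest COL libraries, and the tissues overlapped. The log2 fold change was 0.39 ± 0.28 (SE, 95% interval -0.22 to 1.01, adjusted p = 0.326, edgeR), higher in SI in 3 of 4 mice. An antisense transcript, Gm11670, with 0 to 5 counts per library, overlaps 3.8% of the Axin2 exons.

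Nkd1, on chr8:88521354-88594884 (plus strand), an inhibitor that binds Dishevelled, was the lowest of the 10 genes in SI per kb. Its counts were 4, 23, 4 and 6 in SI and 48, 19, 17 and 8 in COL, or 0.181, 1.39, 0.203 and 0.275 CPM in SI and 1.41, 1.18, 0.455 and 0.168 CPM in COL. SI2, COL1 and COL2, 3 of the 4 libraries of high mitochondrial share, were the highest. Its log2 fold change of -0.65 ± 0.91 (SE, 95% interval -2.65 to 1.35, adjusted p = 0.635, edgeR) leaves room for a several-fold difference in either direction at this depth.

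Of 9 intracellular feedback inhibitors 5 passed the filter and none was called. The other 3 of these 5, Axin1, Cxxc4 and Dact2, had log2 fold changes of -0.03, -1.32 and -0.00449. A share of 0 of 5 stands beside the 28.4% of all genes called.

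**Figure D4:**
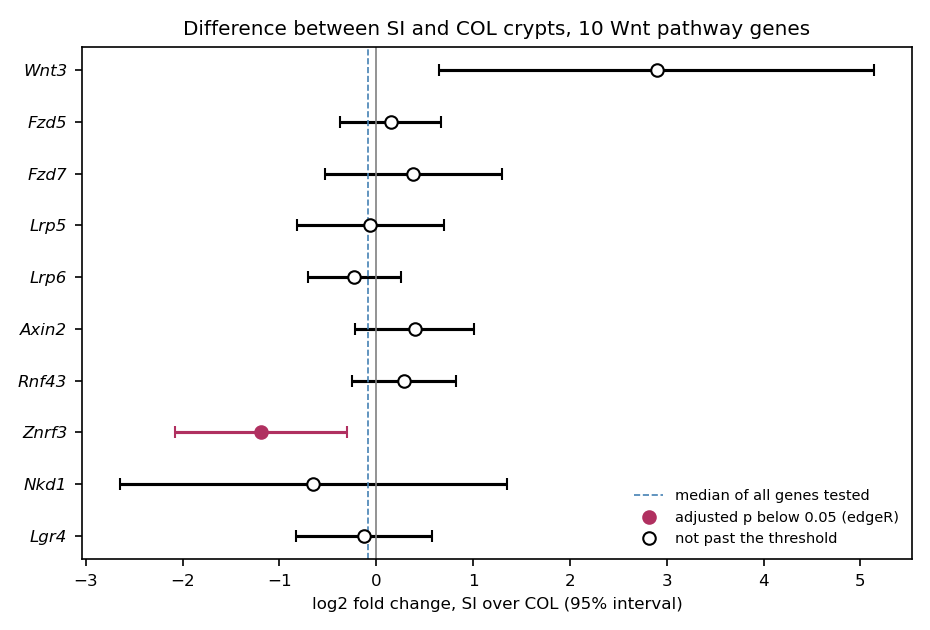
Log2 fold change of SI over COL with its 95% interval (edgeR) for the 10 genes. The dashed line marks the median of all genes tested, -0.09. Only Znrf3 (-1.19) is filled as past the threshold, and the widest intervals are those of Wnt3 and Nkd1, the genes with the fewest counts.

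Ranked by mean CPM per kb of exon, SI held Lgr4 (10.2 ± 2.42), Rnf43 (5.75 ± 1.34), Fzd5 (5.25 ± 0.985), Axin2 (3.96 ± 0.891), Lrp6 (2.87 ± 0.166), Lrp5 (1.31 ± 0.332), Fzd7 (1.20 ± 0.374), Znrf3 (0.886 ± 0.391), Wnt3 (0.373 ± 0.329) and Nkd1 (0.112 ± 0.129) in falling order (SD, n = 4). Neighbours were apart only between Lgr4 and Rnf43, Axin2 and Lrp6, and Lrp6 and Lrp5, and all other neighbours overlapped. In COL the order was Lgr4 (11.2 ± 4.24), Fzd5 (4.74 ± 0.616), Rnf43 (4.72 ± 0.530), Lrp6 (3.36 ± 0.467), Axin2 (3.01 ± 0.786), Znrf3 (2.02 ± 0.461), Lrp5 (1.37 ± 0.558), Fzd7 (0.917 ± 0.415), Nkd1 (0.176 ± 0.129) and Wnt3 (0.0447 ± 0.0559). There, only Lgr4 and Fzd5, and Fzd7 and Nkd1, did not overlap. Znrf3 moved from the eighth place in SI to the sixth in COL, and Wnt3 from the ninth to the last. Exon length here joins all annotated exons of a gene. It exceeds the longest transcript for Lrp6 (13672 against 9368 bases) and Rnf43 (6558 against 4310 bases), but not for Fzd5 (6915 bases for both). The order and the gaps between neighbours rest on this length, and no other length was tried.

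TCF and LEF factors, the nuclear partners of beta-catenin, bind sites with the core CTTTGAT or CTTTGTT. These 2 motifs were searched for on both strands in RefSeq promoter windows (GRCm38.p6, 250 bases before to 50 bases after the start). Windows were held for 7 of the 10 genes, 8 windows in all, and none for Lrp5, Lrp6 and Znrf3. A motif was found in 2 of the 8 windows, against 9.34% of 32817 windows of all genes, and no match overlapped another. The matches are shown with 10 bases on each side and the motif in capitals, because they lie in the windows of the ligand and of 1 of its receptors.
Fzd7: ccacagagaaAACAAAGcgcgctattg
Wnt3: ctcaagtggaCTTTGTTccaactattg
The Fzd7 match, the reverse complement of CTTTGTT, lies at chr1:59482007-59482033 (plus strand), with the motif's first base at position -130 from the RefSeq start. The Wnt3 match lies at chr11:103774183-103774209 (plus strand), with the motif's first base at position 19 from the RefSeq start. For both genes the RefSeq start differs from the gene start in the coordinates given above. Neither gene passed the test between the tissues, and a match describes these letters only.

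Across all Wnt pathway lists, 110 genes counted once each, 69 passed the filter and 22 were called (31.9%), 5 as higher in SI and 17 as higher in COL. Without the 10 members these were 21 of 59 (35.6%), with a median log2 fold change of -0.44. The background of 28.4% lies below both shares. Several called genes, Ror1, Fzd3, Tcf7l1, Sfrp5 and Sp5 among them, passed the filter through the tissue where they were high, which limits this comparison.

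Secreted antagonists were mostly below the filter, with 3 of 15 tested and 2 called, beside 28.4% of all genes tested. Sfrp5, a decoy that binds Wnt ligands, had 18, 30, 83 and 18 counts in SI and 0, 0, 5 and 3 in COL (adjusted p = 0.00408, edgeR). Kremen2, which acts with Dkk proteins on Lrp5 and Lrp6, was the higher in COL of the pair (log2 fold change -1.88 ± 0.43, SE, adjusted p = 0.00742, edgeR). Both calls held in all 8 fits that left out 1 library.

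Few genes of the signal-transducing core were called, beside 28.4% of all genes tested. Of the destruction complex and Dishevelled genes 17 of 18 passed the filter and 1 was called (5.88%), Fbxw11, a substrate receptor for beta-catenin degradation, higher in SI by 0.71 on the log2 scale (adjusted p = 0.0409, edgeR). The mouse as a block moved that adjusted p to 0.0630 and called Csnk1e and Tnks instead (adjusted p = 0.0274 and 0.0412), and leaving out any 1 of the 8 libraries lost the call of Fbxw11. Of beta-catenin and its nuclear cofactors 10 of 12 were tested and 2 called (20.0%). Tcf7l1, a TCF factor that mostly represses its targets, had 4, 6, 0 and 4 counts in SI and 453, 385, 615 and 726 in COL (adjusted p = 2.87e-05, edgeR), called with any 1 library left out. Tle3, a co-repressor, was higher in SI by 1.05 on the log2 scale (adjusted p = 0.0320, edgeR), a call lost without SI1, SI4, COL1, COL3 or COL4.

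Crypt genes known as Wnt targets were called in 8 of 18 cases (44.4%), Znrf3 among them, beside 28.4% of all genes tested. Of these, 7 were higher in COL and 1 was higher in SI, beside 12.9% and 15.5% of all genes tested. Their summed level was 78.5, 222, 276 and 193 CPM in SI and 717, 490, 487 and 563 CPM in COL, without overlap. Sp5, a transcription factor, was higher in SI, with 71, 32, 85 and 48 counts in SI and 8, 0, 0 and 3 in COL (adjusted p = 0.00251, edgeR). Zbtb7c, Ephb3 and Sox9, the last a factor of crypt progenitors, were higher in COL, with log2 fold changes of -4.73, -3.64 and -2.98 (adjusted p = 5.89e-05, 0.000144 and 0.000241, edgeR). The 3 other members on this list, Axin2, Rnf43 and Nkd1, were not called. SI1 had the lowest sum, as for stem and cycling cell markers, but the stem cell list shares genes with this one, Axin2, Ascl2 and Slc12a2 among them. The calls of Sp5, Zbtb7c, Ephb3 and Sox9 held in all 8 fits that left out 1 library, SI1 included.

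**Figure D5:**
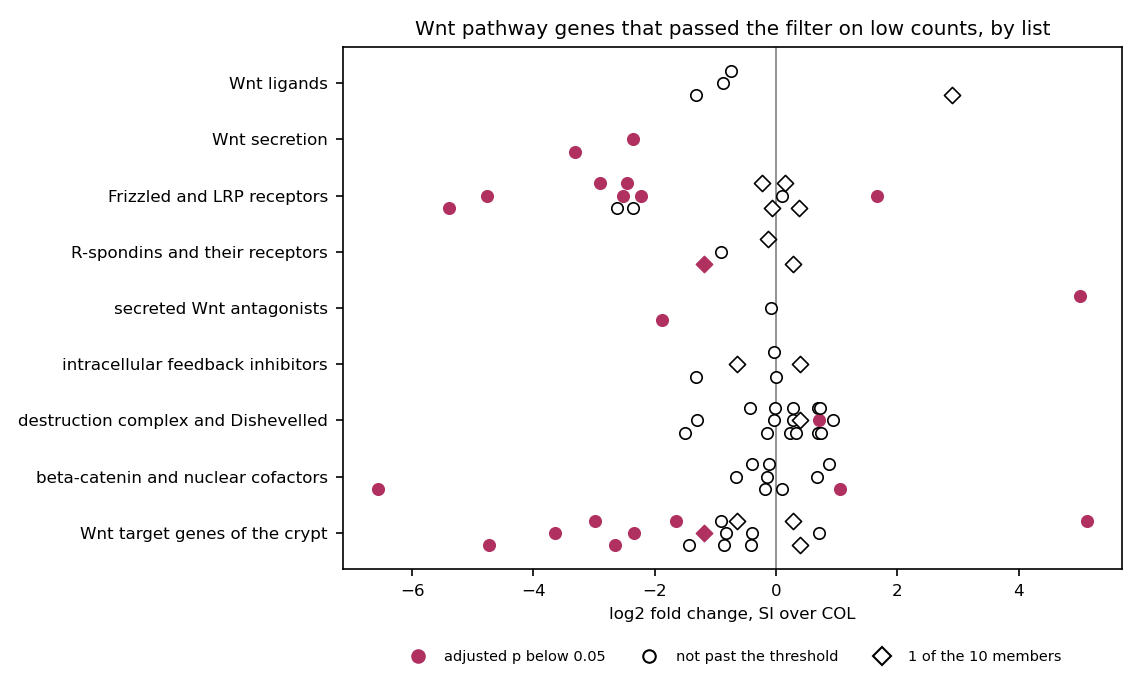
Log2 fold change of SI over COL for each gene that passed the filter (horizontal axis), by pathway list. Filled symbols passed the threshold in edgeR, and diamonds are the 10 members, drawn in each list that holds them, with small vertical offsets for legibility only. Most members lie near 0. On the COL side lie 6 of the 7 called receptors and 7 of the 8 called crypt targets, the member Znrf3 among these. Another 7 tested receptors and 10 tested crypt targets were not called.

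The tissue difference was also compared between female and male mice, with 2 mice of each sex. No member passed the tissue by sex interaction in edgeR, where 0 of 14491 genes were called (0.0%) and 761 had an unadjusted p below 0.05, Wnt3 alone among the members. DESeq2 called 11 genes (0.0759%) and no member. For Wnt3 the difference in mean log2 CPM was 1.18 in females and 3.58 in males (interaction unadjusted p = 0.0247, adjusted p = 0.909, edgeR), and with 2 mice a sex this comparison has little power. The male COL libraries, COL2 and COL3, held 0 and 1 counts of Wnt3, so the male value depends on the 0.1 CPM added before taking logs.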

How the data were processed

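Per the labels and the study's methods, crypt RNA was sequenced as paired-end reads, trimmed, aligned to mm10, and STAR then gave the counts of each gene. The submitters' processing notes name Trimmomatic 0.36 and STAR 2.5.2b. The authors deposited whole-number counts per Ensembl gene without normalization, and replicates were not pooled. The annotation release and the strand setting are not given in the sources used here, so reads of antisense pairs may not be told apart. GENCODE vM21, built on GRCm38 as mm10 is, supplied symbols, coordinates and exon lengths and matched 45143 of 45706 identifiers.

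SI was tested against COL on the deposited counts with edgeR 4.0.16 (quasi-likelihood test, TMM factors, R 4.3.3). The filter on low counts was filterByExpr, grouped by tissue (about 10 counts in at least 4 libraries and 15 in all), and p-values were adjusted by Benjamini-Hochberg over all genes kept. Log2 CPM used an offset of 0.1 CPM. Ratios within a library used 0.5 added counts and exact permutation tests. The fits were tested on simulated data. Alternatives were DESeq2 1.42.0, limma 3.58.1 (voom), library size alone, upper-quartile factors, 2 other filters, the mouse as a block, mitochondrially encoded genes left out, and each library left out in turn. The labels' donor numbers pair the libraries of a mouse, and deviations of same-mouse libraries from their tissue means correlated at -0.24, 0.39, -0.08 and 0.33.

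The members and lists were chosen with earlier results of these data known. Named genes were the 10 members, up to 4 called genes with the largest changes per list, the pairs and the 5 genes nearest to Wnt3. Other pathway genes (Wnt2b, Wnt5a, Wnt5b, Fzd1, Fzd2, Fzd4, Fzd6, Ptk7, Ryk, Cxxc4, Dact2, Csnk1e and Tnks) were named after their values were seen. Precision is limited by 4 mice per tissue, and intervals for 0 counts cover counting error only.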

Additional observations from a re-analysis of the deposited data

Results flagged for a closer look

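The levels of the 10 members and of Axin1, Lgr5 and Nkd2 and the 6 ratios of related genes were each screened on the linear and the log2 scale within each tissue, and the Fzd5 and Fzd7 share in percent. A library was marked when its gap to the nearest other, divided by the range of the 4 libraries, exceeded Dixon's 95% critical value, which chance gives in about 1 of 20 groups. Of 78 screens 11 were marked, and the 2 scales of a quantity share their libraries.

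The Znrf3 level of SI1, 2.40 CPM, lay below the 7.96 to 8.82 CPM of the other SI libraries, with a gap of 0.866 of the range in CPM and 0.920 in log2 CPM. The Znrf3/Rnf43 ratio of COL2, 0.290, lay below the 0.467 to 0.485 of the other COL libraries, with a gap of 0.905 of the range on the linear and 0.924 on the log2 scale. Both were thus marked on either scale.

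The others were marked on 1 scale only. SI2 was high in CPM for 3 members, with 2.66 CPM of Wnt3 (0.558 to 0.778 CPM in the other SI libraries, gap 0.895), 29.1 CPM of Axin2 (18.4 to 20.2 CPM, gap 0.836) and 1.39 CPM of Nkd1 (0.181 to 0.275 CPM, gap 0.923). The Rnf43 level of COL1, 25.8 CPM, lay below the 32.1 to 33.6 CPM of the other COL libraries, with a gap of 0.832 in log2 CPM. On the linear scale, the Lgr4/Lgr5 ratio was 134.6 in SI1 (7.96 to 21.8 in the others, gap 0.890), and the Nkd2/Nkd1 ratio was 2.62 in SI3 (0.105 to 0.509, gap 0.840) and 1.11 in COL3 (0.167 to 0.315, gap 0.842).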

How the results depend on the processing

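The number of members called was 1 in the reported test and 2 with DESeq2, limma-voom and limma-voom with the mouse as a block (Znrf3 and Wnt3) and with library size alone (Znrf3 and Lrp6). With 1 library left out it ranged from 0 to 1. Pathway list genes called ranged from 15 to 25 and all genes called from 3167 to 4480 with 1 library left out. Where every library had to hold 10 counts or more, the filter left 9 list genes called in place of 22, and Wnt3 and Nkd1 then had no value. Calls higher in SI and in COL numbered 2253 and 1863 in the reported test, 1115 and 4788 with library size alone and 1712 and 2781 with upper-quartile factors, which moved the median of all genes to -0.82 and -0.42. With library size alone the sign turned for Fzd5 (-0.57), Fzd7 (-0.41), Axin2 (-0.34) and Rnf43 (-0.45), and with upper-quartile factors for Fzd5 (-0.18) and Rnf43 (-0.037), none of them past the threshold and all above the shifted median. Lrp5 turned to 0.036 with limma-voom and to 0.0034 with the mouse as a block. With 1 library left out, Lrp5 ranged from -0.23 to 0.15, Lgr4 from -0.28 to 0.11 and the log2 difference of the Nkd2/Nkd1 ratio from -0.50 to 1.04. The replicate block in edgeR changed the call of no member, and its Znrf3 value was -1.31. Among the libraries with a high and those with a low mitochondrial share, the differences in mean log2 CPM were 3.10 and 1.66 for Wnt3, -0.63 and -2.003 for Znrf3, and 0.52 and 0.01 for Rnf43. The cause of these changes was not tested. At 0 to 48 counts per library, depth limited Wnt3 and Nkd1. The Wnt3 differences by mitochondrial share include COL2 (high share, 0 counts) and COL3 (low share, 1 count), so both depend on the offset of 0.1 CPM.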
